A study of Rattus norvegicus with 9 samples.

Results

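The genes described here are 5 markers of reactive astrocytes, Gfap (ENSRNOG00000002919), Vim (ENSRNOG00000018087), Lcn2 (ENSRNOG00000013973), Cd44 (ENSRNOG00000006094) and Stat3 (ENSRNOG00000019742), out of 32623 rat genes in the count table. The rule names them by Ensembl identifier and sets no threshold on their values, but it was written with earlier results of these data known. The table holds identifiers alone, and the gene symbols came with the choice of the 5 rows, since no table used here pairs a symbol with an identifier. All 5 were abundant enough to be among the 15402 genes tested. Expression was measured by RNA sequencing of poly(A) RNA from rat brain tissue. All groups went through what the labels only call modeling, received an injection 4.5 h later and gave tissue 3 days after it. The Nano-patrol+NIR group received the treatment of that name, which the labels describe no further and the series title places among thrombolysis treatments. The rt-PA group received, by its titles and treatment labels, recombinant tissue plasminogen activator, an enzyme that dissolves clots by turning plasminogen into plasmin. The table and the sample descriptions call the same libraries uk, and this difference in name was not resolved. The saline group received saline. Each group had 3 libraries, and the labels give neither strain, sex, age nor brain region. Nor do they tie each library to an animal of its own, and the p-values therefore cover library-to-library spread that may be technical. Brain tissue without the modelling step was not analysed here.

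Astrocytes answer injury, ischaemia and inflammation by becoming reactive, a state in which the cells enlarge, build more intermediate filaments and secrete new proteins. Gfap and Vim encode the filament proteins GFAP and vimentin; GFAP marks astrocytes among brain cells, whereas vimentin is also made by endothelial cells, fibroblasts and microglia. Stat3 encodes a transcription factor that is activated by cytokines of the interleukin-6 family and that astrocytes of injured mouse tissue need for full reactivity. Cd44 encodes a cell surface receptor for hyaluronan and osteopontin, carried by reactive astrocytes and by infiltrating leukocytes. Lcn2 encodes lipocalin-2, a secreted protein that binds iron-loaded siderophores and is made by reactive astrocytes and by neutrophils. In bulk tissue, fewer cells of a type and less RNA per cell cannot be told apart. Markers of the other cell types could not be looked up by identifier, so their part in the results was not tested. For the same reason the labelled tissue was not checked against neuronal or oligodendrocyte markers, and a further list of cytokine and JAK-STAT genes was not counted.

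The stretches of 250 bases just before the start of each gene are shown because 4 of the 5 genes had high counts in the same rt-PA libraries. They are RefSeq sequences of the rat build GRCr8, printed 5′ to 3′ on the gene's own strand, and the build behind the count table is not given in the sources used here. They lie at chr10:88361662-88361911 (minus strand) for Gfap, chr17:81577011-81577260 (plus strand) for Vim, chr3:36081781-36082030 (minus strand) for Lcn2, chr3:109699425-109699674 (minus strand) for Cd44 and chr10:86363360-86363609 (minus strand) for Stat3. Capitals mark matches, on either strand, to a TATA box (TATAAA) or to the NF-kB motif, searched for as GGGRNNYYCC. In this pattern R is A or G, Y is C or T and N is any base.
Gfap: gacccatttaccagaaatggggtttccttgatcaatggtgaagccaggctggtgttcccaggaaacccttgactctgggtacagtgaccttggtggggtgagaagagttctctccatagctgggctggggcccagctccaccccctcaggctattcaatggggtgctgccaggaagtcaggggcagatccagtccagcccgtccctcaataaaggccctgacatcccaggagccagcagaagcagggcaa
Vim: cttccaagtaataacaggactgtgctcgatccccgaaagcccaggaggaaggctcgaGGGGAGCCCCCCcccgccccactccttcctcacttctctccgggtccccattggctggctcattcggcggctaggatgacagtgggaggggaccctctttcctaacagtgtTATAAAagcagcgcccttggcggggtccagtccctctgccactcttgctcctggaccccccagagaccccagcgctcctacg
Lcn2: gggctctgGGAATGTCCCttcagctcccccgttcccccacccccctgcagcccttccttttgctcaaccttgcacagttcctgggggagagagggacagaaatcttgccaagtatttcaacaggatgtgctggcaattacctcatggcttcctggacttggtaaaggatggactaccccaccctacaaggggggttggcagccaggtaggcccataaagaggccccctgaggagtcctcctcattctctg
Cd44: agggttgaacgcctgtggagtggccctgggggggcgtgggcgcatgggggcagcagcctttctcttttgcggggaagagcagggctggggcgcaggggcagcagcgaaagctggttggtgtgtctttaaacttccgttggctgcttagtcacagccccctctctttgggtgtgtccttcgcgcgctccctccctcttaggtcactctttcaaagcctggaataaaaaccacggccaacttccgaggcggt
Stat3: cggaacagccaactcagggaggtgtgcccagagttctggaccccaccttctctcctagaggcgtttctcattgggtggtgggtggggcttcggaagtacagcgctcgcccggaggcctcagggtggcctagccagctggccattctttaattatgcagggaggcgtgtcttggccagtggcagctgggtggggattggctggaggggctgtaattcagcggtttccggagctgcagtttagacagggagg
The element bound by STAT dimers, TTCNNNGAA, was found in 0 of the 5 stretches, against 7.67% of 33465 RefSeq promoter stretches of the same length. The AP-1 motif TGANTCA was also found in 0 of the 5, against 6.34% of all. TATAAA occurred in Vim alone of the 5, against 12.9% of all. The NF-kB motif occurred in 2 of the 5, against 6.33% of all, once in Lcn2 and as 3 overlapping matches in Vim. The Vim matches lie 182 to 193 bases before the start, and the Lcn2 match 233 to 242 bases before it. A match describes letters only, and a stretch without one says nothing of more distant sites.

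Library totals ran from 13059048 to 14992109 counts. Values per library are CPM, each count relative to its library total corrected by a TMM factor, and levels are not compared between genes because transcript lengths were not used. Over all tested genes 1 library of each group was less like its group mates than they were like each other, namely Nano-patrol+NIR 3 (mean r of log2 CPM with them 0.942), rt-PA 3 (0.905) and saline 1 (0.928). Results that rest on rt-PA 3 are given with and without it.

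Among the filament genes, Gfap was higher after rt-PA in every library. It reached 1646, 969 and 1269 CPM in rt-PA 1 to 3, against 479, 216 and 255 CPM in saline 1 to 3. The groups did not overlap, and the lowest rt-PA library had more Gfap than the highest saline library, saline 1. Mean levels were 1295 CPM (SD 339, n = 3) in rt-PA against 317 CPM (SD 142, n = 3) in saline, a log2 fold change of 2.03 with a 95% interval of 1.22 to 2.84. Only 276 of the 15402 tested genes had a higher log2 fold change than Gfap. With edgeR and Benjamini-Hochberg adjustment over all tested genes the adjusted p was 0.0635, which missed the threshold of 0.05.

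Vim, the partner filament, had no such difference. It stood at 234, 191 and 157 CPM in rt-PA 1 to 3, against 190, 188 and 204 CPM in saline 1 to 3, and the groups overlapped. Its log2 fold change was -0.0030 with a 95% interval of -0.46 to 0.45 (edgeR adjusted p = 0.996), so a change of more than 1.37-fold in either direction lay outside the interval. Gfap and Vim are often used side by side as reactive astrocyte markers, and here their log2 fold changes had intervals that did not overlap.

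Cd44 had the greatest log2 fold change of the 5 genes. It was at 199 and 212 CPM in rt-PA 1 and rt-PA 2 and at 19.97 CPM in rt-PA 3, against 5.23, 4.78 and 6.75 CPM in saline 1 to 3. Every rt-PA library lay above every saline library, yet rt-PA 2 held 10.6 times the level of rt-PA 3. Mean levels were 144 CPM (SD 107, n = 3) in rt-PA against 5.58 CPM (SD 1.04, n = 3) in saline. The log2 fold change was 4.68 with a 95% interval of 2.85 to 6.52, exceeded by 27 of the 15402 tested genes. The edgeR adjusted p was 0.0607 and missed the threshold.

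Stat3, like Cd44, was highest in rt-PA 2 and rt-PA 1. It had 327 and 374 CPM in rt-PA 1 and rt-PA 2 and 99.1 CPM in rt-PA 3, against 90.8, 86.1 and 83.0 CPM in saline 1 to 3. The groups did not overlap, but rt-PA 3 lay only 8.28 CPM above the highest saline library. The log2 fold change was 1.62 with a 95% interval of 0.69 to 2.55 (edgeR adjusted p = 0.122).

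Lcn2 was the least abundant by count, with 36 to 357 counts in the rt-PA libraries and 13 to 58 in the saline libraries. It had 14.1 and 27.2 CPM in rt-PA 1 and rt-PA 2 and 2.50 CPM in rt-PA 3, against 3.94, 1.00 and 1.42 CPM in saline 1 to 3. Here rt-PA 3 lay below saline 1, so the groups overlapped. The log2 fold change was 2.77 with a 95% interval of 0.83 to 4.72 (edgeR adjusted p = 0.170). It was 3.62 without saline 1 (edgeR adjusted p = 0.146) and 1.96 without rt-PA 2 (edgeR adjusted p = 0.464).

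**Figure D1:**
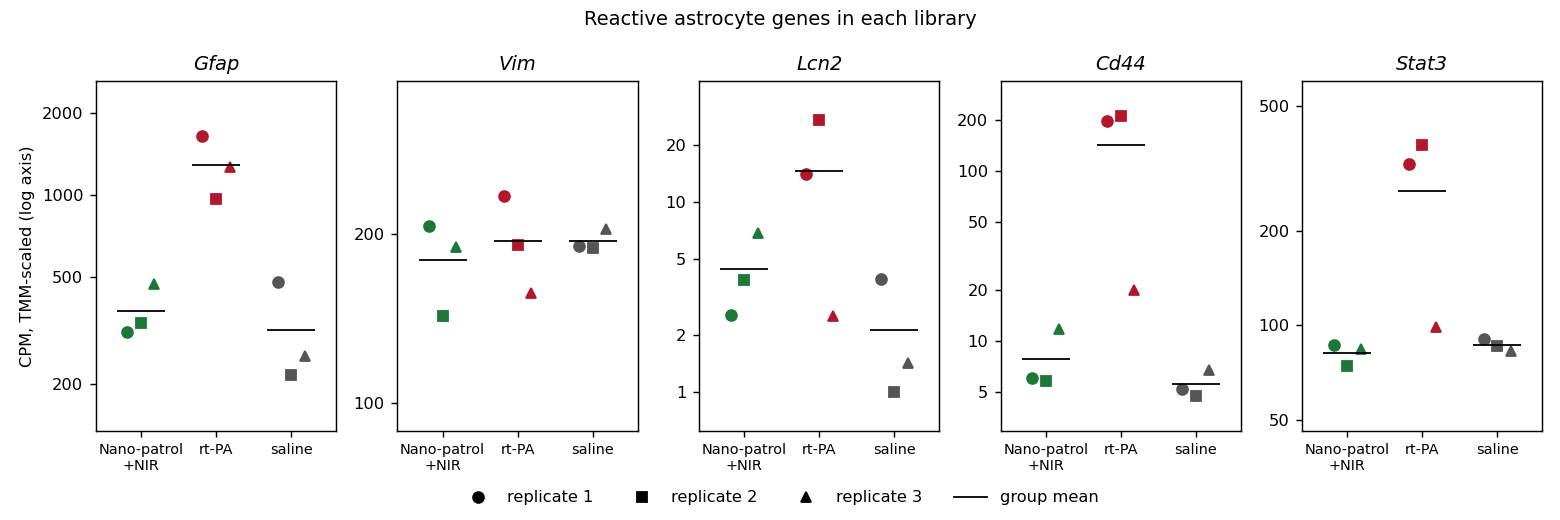
CPM (TMM-scaled, log axis) of the 5 genes in each library; symbols mark replicate numbers and lines the group means. rt-PA 1 and rt-PA 2 stand above all saline and Nano-patrol+NIR libraries for Gfap, Lcn2, Cd44 and Stat3, while rt-PA 3 stays there for Gfap and Cd44 by a clear margin, for Stat3 by 8.28 CPM over the highest saline library, and not for Lcn2.

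Counted over the 5 genes, 0 passed the edgeR threshold for rt-PA against saline, where 0.00649% of all tested genes passed. At an unadjusted edgeR p under 0.05, Gfap, Lcn2, Cd44 and Stat3 were higher in rt-PA, 4 of 5, against 9.05% of all tested genes higher at that p. Groups did not overlap for Gfap, Cd44 and Stat3, 3 of 5, all higher in rt-PA, against 9.18% of all tested genes. The median log2 fold change was 2.03 over the 5 genes and -0.0087 over all tested genes. limma-voom called 0 of the 5 genes, where it called 0% of all. DESeq2 called Gfap, Lcn2, Cd44 and Stat3 higher, 4 of 5, where it called 6.9% of all tested genes. limma-voom with a weight per library called the same 4 higher, where it called 45.2% of all.

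The calls thus depended on the test, and with edgeR they also depended on rt-PA 3. Without rt-PA 3, edgeR called 4 of the 5 genes, where it called 13.5% of all tested genes. Cd44 then had a log2 fold change of 5.22 (edgeR adjusted p = 0.000504) and Stat3 one of 2.04 (edgeR adjusted p = 0.000583). Gfap had 2.07 (edgeR adjusted p = 0.0178) and Lcn2 3.28 (edgeR adjusted p = 0.0180). Vim stayed near 0 at 0.16 (edgeR adjusted p = 0.624). Leaving out a library because it stands apart makes the remaining spread over all tested genes, and with it the p-values, too small. For Gfap the unadjusted edgeR p rose without rt-PA 3, from 0.000331 to 0.00110. Its adjusted p fell only through the adjustment, as more of all tested genes were called. No call was made when any other single library was left out.

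Within the rt-PA group the 5 genes parted from each other. The log2 CPM of rt-PA 3 minus the mean of rt-PA 1 and rt-PA 2 was -3.35 for Cd44, -2.90 for Lcn2 and -1.82 for Stat3. For Gfap the same difference was 0.0072, so rt-PA 3 had the Gfap level of its group mates. Over all tested genes this difference had an SD of 1.08, and 0.902% of genes were further down than Cd44, 1.40% than Lcn2 and 4.30% than Stat3. Set against the mean of the saline libraries, rt-PA 3 had 4.01-fold more Gfap and 3.58-fold more Cd44, but 1.14-fold more Stat3 and 1.18-fold more Lcn2. rt-PA 1 had 5.20-fold more Gfap, 35.6-fold more Cd44, 3.78-fold more Stat3 and 6.67-fold more Lcn2. rt-PA 2 had 3.06-fold more Gfap, 38.0-fold more Cd44, 4.32-fold more Stat3 and 12.8-fold more Lcn2, so the library with the least Gfap of its group had the most Cd44, Stat3 and Lcn2.

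**Figure D2:**
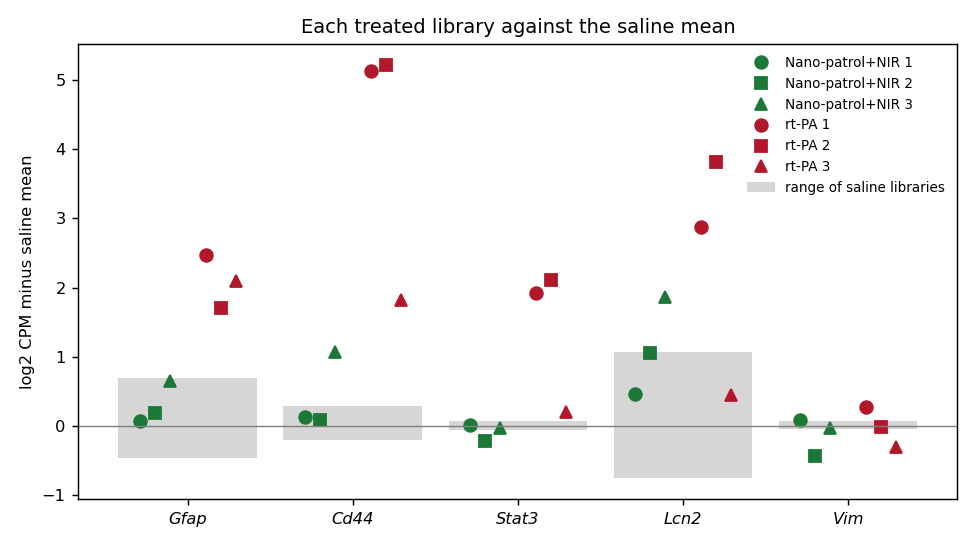
Log2 CPM of each treated library minus the mean of the saline libraries, with the range of the saline libraries in grey. rt-PA 3 (red triangle) sits with rt-PA 1 and rt-PA 2 for Gfap and lies below them for Cd44, Stat3 and Lcn2, by log2 differences from their mean of -3.35, -1.82 and -2.90.

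After Nano-patrol+NIR the libraries of each of the 5 genes overlapped those after saline. Gfap had 313, 337 and 468 CPM in Nano-patrol+NIR 1 to 3, against 479, 216 and 255 CPM in saline 1 to 3, and the groups overlapped. The log2 fold change of Gfap was 0.23 with a 95% interval of -0.55 to 1.02, and without saline 1 it was 0.68 (edgeR adjusted p = 0.736). Stat3 had 86.9, 74.1 and 84.4 CPM in Nano-patrol+NIR 1 to 3, against 90.8, 86.1 and 83.0 CPM in saline 1 to 3. Its log2 fold change was -0.083 with a 95% interval of -0.99 to 0.83, and the overlapping libraries spanned a narrow range in both groups. Vim had 206, 143 and 190 CPM in Nano-patrol+NIR 1 to 3, a log2 fold change over saline of -0.11 with a 95% interval of -0.57 to 0.34.

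The inducible surface receptor and the secreted protein gave wider intervals. Cd44 had 6.04, 5.84 and 11.8 CPM in Nano-patrol+NIR 1 to 3, a log2 fold change over saline of 0.50 with a 95% interval of -1.15 to 2.14. Nano-patrol+NIR 3, the library least like its group mates, was the one above all saline libraries, and without it the log2 fold change was 0.088. Lcn2 had 2.54, 3.87 and 6.89 CPM in Nano-patrol+NIR 1 to 3, a log2 fold change over saline of 1.06 with a 95% interval of -0.83 to 2.94. Nano-patrol+NIR 1 and 2 lay below saline 1 for Lcn2, so the groups overlapped, and without saline 1 the log2 fold change was 1.88 (edgeR adjusted p = 0.776). With edgeR 0 of the 5 genes were called, where 0.00649% of all tested genes were, and each had an edgeR adjusted p of 1.000. At an unadjusted p under 0.05 the count was also 0, against 5.89% of all tested genes. DESeq2 also called 0 of the 5 (0.857% of all), as did limma-voom without weights (0% of all), limma-voom weighted by library (5.9% of all) and edgeR without rt-PA 3 (0.223% of all). Groups overlapped for all 5 genes, whereas they did not for 7.62% of all tested genes that were higher and 6.86% that were lower in Nano-patrol+NIR. These intervals do not show that the levels were alike, since that of Cd44 reached 4.42-fold higher and that of Lcn2 7.70-fold higher. The fit pooled spread over all groups, so their width also holds that of the rt-PA libraries, which this comparison leaves out. With only the libraries compared in the fit, the unadjusted edgeR p of Cd44 fell from 0.510 to 0.189. That of Stat3 fell from 0.841 to 0.565, that of Lcn2 from 0.236 to 0.135 and that of Vim from 0.584 to 0.570. For Gfap it rose from 0.513 to 0.521.

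**Figure D3:**
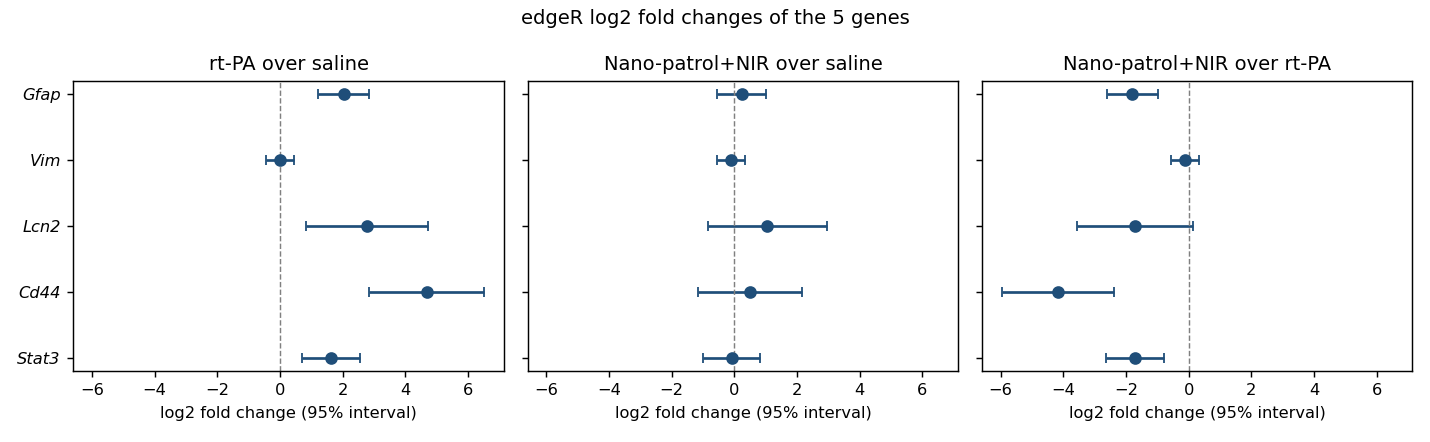
edgeR log2 fold changes of the 5 genes with 95% intervals in each comparison, the first-named group over the second. For rt-PA over saline the intervals of Gfap, Lcn2, Cd44 and Stat3 lie above 0, for Nano-patrol+NIR over saline all 5 hold 0, and for Nano-patrol+NIR over rt-PA those of Gfap, Cd44 and Stat3 lie below 0.

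The direct comparison of Nano-patrol+NIR with rt-PA asked whether these genes differed between the treatments. It uses the same libraries as the comparisons with saline, so its values are not a further observation of them. Gfap averaged 373 CPM (SD 83.8, n = 3) in Nano-patrol+NIR against 1295 CPM (SD 339, n = 3) in rt-PA. Its highest Nano-patrol+NIR library, at 468 CPM, lay below its lowest rt-PA library, at 969 CPM. The log2 fold change was -1.80 with a 95% interval of -2.60 to -0.99 (edgeR adjusted p = 0.170).

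Cd44 averaged 7.88 CPM (SD 3.36, n = 3) in Nano-patrol+NIR against 144 CPM (SD 107, n = 3) in rt-PA. Its log2 fold change was -4.18 with a 95% interval of -5.97 to -2.40 (edgeR adjusted p = 0.148). The highest Nano-patrol+NIR library, at 11.8 CPM, was nearer to rt-PA 3, at 19.97 CPM, than rt-PA 3 was to rt-PA 1, at 199 CPM. Stat3 averaged 81.8 CPM (SD 6.79, n = 3) in Nano-patrol+NIR against 267 CPM (SD 147, n = 3) in rt-PA, a log2 fold change of -1.71 with a 95% interval of -2.64 to -0.77 (edgeR adjusted p = 0.193). The groups did not overlap for Cd44 and Stat3 either.

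Lcn2 averaged 4.43 CPM (SD 2.23, n = 3) in Nano-patrol+NIR against 14.6 CPM (SD 12.3, n = 3) in rt-PA. Its groups overlapped, because rt-PA 3 at 2.50 CPM lay below all Nano-patrol+NIR libraries, and its log2 fold change of -1.72 had a 95% interval of -3.57 to 0.14 (edgeR adjusted p = 0.391). Without rt-PA 2 that log2 fold change was -0.91 (edgeR adjusted p = 0.872). Vim averaged 180 CPM (SD 33.0, n = 3) in Nano-patrol+NIR against 194 CPM (SD 38.8, n = 3) in rt-PA. Its libraries overlapped, and the log2 fold change was -0.11 (95% interval -0.56 to 0.34, edgeR adjusted p = 0.843).

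For Nano-patrol+NIR against rt-PA, 0 of the 5 genes passed the edgeR threshold, where 0% of all tested genes passed. At an unadjusted edgeR p under 0.05, Gfap, Cd44 and Stat3 were lower in Nano-patrol+NIR, 3 of 5, against 7.86% of all tested genes lower at that p. The same 3 genes were those whose groups did not overlap, all lower in Nano-patrol+NIR, against 8.54% of all tested genes. The median log2 fold change was -1.72 over the 5 genes and 0.023 over all tested genes. limma-voom called 0 of the 5, where it called 0.00649% of all, and DESeq2 called Gfap, Cd44 and Stat3 lower, 3 of 5, where it called 4.07% of all. limma-voom with a weight per library called those 3 and Lcn2 lower, 4 of 5, where it called 39.1% of all. Without rt-PA 3, edgeR called Gfap, Cd44 and Stat3, 3 of 5, where it called 13.1% of all tested genes. Their log2 fold changes were then -1.85 for Gfap (edgeR adjusted p = 0.0262), -4.73 for Cd44 (edgeR adjusted p = 0.000716) and -2.13 for Stat3 (edgeR adjusted p = 0.000603). Lcn2 had -2.24 in that fit and missed the threshold (edgeR adjusted p = 0.0545). The unadjusted edgeR p of Gfap rose here too, from 0.000731 with rt-PA 3 to 0.00212 without it.

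**Figure D4:**
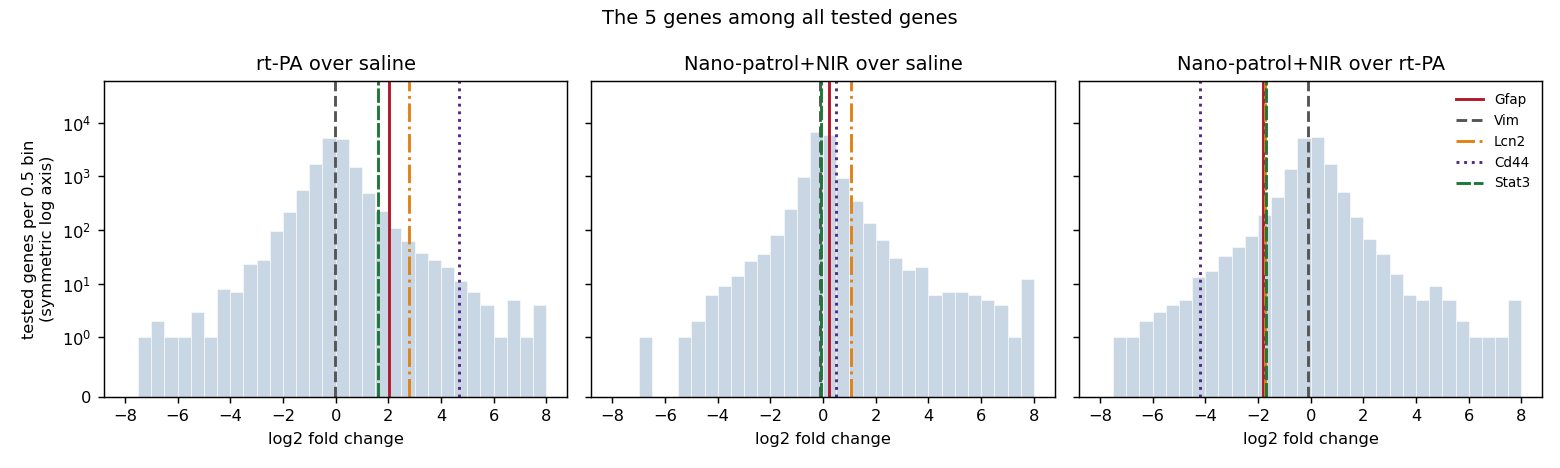
Number of tested genes per 0.5 bin of the edgeR log2 fold change (symmetric log axis, end bins include all values beyond them), with the 5 genes as lines. For rt-PA over saline, Cd44 at 4.68 was exceeded by 27 of 15402 genes and Gfap at 2.03 by 276; for Nano-patrol+NIR over saline the 5 lines lie between -0.11 and 1.06.

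In the test of any difference among the 3 groups, 0 of the 5 genes passed, where 0.00649% of all tested genes did. The edgeR adjusted p was 0.0929 for both Cd44 and Gfap, 0.140 for Stat3, 0.262 for Lcn2 and 0.932 for Vim. At an unadjusted edgeR p under 0.05 the count was 4 of 5, Vim being the exception, against 14.7% of all tested genes. limma-voom called 0 of the 5 (0% of all). DESeq2 called Gfap, Lcn2, Cd44 and Stat3 (7.08% of all), as did limma-voom with a weight per library (49.5% of all) and edgeR without rt-PA 3 (12.1% of all). After the values had been seen, the libraries least like their group mates, Nano-patrol+NIR 3, rt-PA 3 and saline 1, were left out together, and the same 4 genes were called again (45.3% of all). That fit called these 4 higher in rt-PA than in saline (43.8% of all), the same 4 lower with Nano-patrol+NIR when set against rt-PA (40.5% of all) and 0 between Nano-patrol+NIR and saline (3.27% of all).

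The spread within groups differed from gene to gene. Stat3 varied little among saline and Nano-patrol+NIR libraries, with coefficients of variation of 8.30% in Nano-patrol+NIR, 55.2% in rt-PA and 4.53% in saline. For Cd44 they were 42.7% in Nano-patrol+NIR, 74.7% in rt-PA and 18.5% in saline. Lcn2 was variable in every group, at 50.3% in Nano-patrol+NIR, 84.5% in rt-PA and 74.9% in saline. Gfap was the gene whose spread was smaller in rt-PA, 26.2%, than in saline, 44.8%, where saline 1 held the highest value, and it was 22.5% in Nano-patrol+NIR.

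Pairs of the 5 genes were compared across libraries, 10 pairs in all. The 9 libraries fall into separate clusters. For Cd44, Stat3 and Lcn2, rt-PA 1 and rt-PA 2 lie opposite the rest, and for Gfap all rt-PA libraries do. No coefficient of log2 CPM pooled over the 9 libraries is therefore given for these pairs. Without rt-PA 1 and rt-PA 2, the correlation of log2 CPM over the other 7 libraries was 0.54 between Cd44 and Stat3, with an exact permutation p of 0.244. Between Lcn2 and Cd44 it was 0.32 (exact permutation p = 0.488), and between Lcn2 and Stat3 it was -0.12 (exact permutation p = 0.828). Gfap had r of 0.85 with Cd44, 0.67 with Stat3 and 0.42 with Lcn2 over these 7 libraries, where rt-PA 3 still lay apart for Gfap. For the pairs with Vim r ran from -0.45 to 0.19. The 6 Nano-patrol+NIR and saline libraries were also taken alone, a subset that was not planned. Within them Lcn2 and Gfap had a Pearson r of 0.93 (exact permutation p = 0.0153) and a Spearman rho of 0.94 (exact permutation p = 0.0167). Adjusted over the 10 pairs these p-values were 0.153 and 0.167, which miss the threshold, and without saline 1 and saline 2, the libraries farthest from the median of Gfap, r was 0.98 over 4 libraries. Both genes were highest, within their groups, in Nano-patrol+NIR 3 and saline 1, and r of the deviations from the group means over these 6 libraries was also 0.98. With the rt-PA libraries included, r of the deviations over all 9 libraries was 0.37. Nano-patrol+NIR 3 and saline 1 also stood apart from their group mates over all tested genes, and whether other gene pairs share this order was not tested. rt-PA 3, with 1269 CPM of Gfap and 2.50 CPM of Lcn2, lay off this order. Within the rt-PA group, rt-PA 2 had the least Gfap, 969 CPM, and the most Lcn2, 27.2 CPM. None of the other 9 pairs had an unadjusted exact permutation p under 0.05 within these 6 libraries, a count of 0 for Pearson and Spearman alike.

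**Figure D5:**
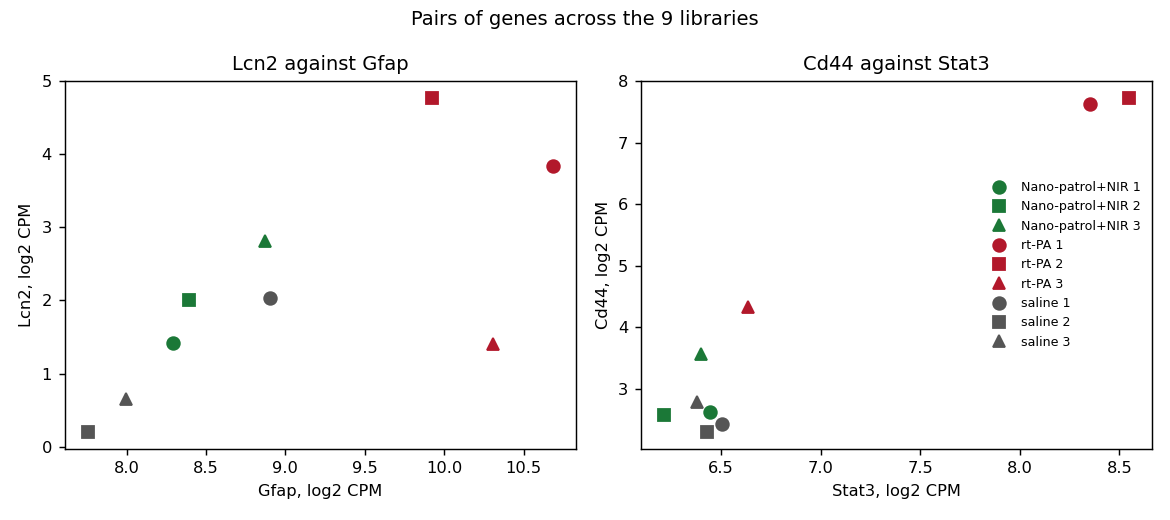
Log2 CPM of Lcn2 against Gfap and of Cd44 against Stat3 in the 9 libraries. Lcn2 and Gfap are ordered alike over the Nano-patrol+NIR and saline libraries (r = 0.93) with rt-PA 3 off to the right, while Cd44 and Stat3 are separated mainly by rt-PA 1 and rt-PA 2.

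Other genes followed Cd44 and Stat3 closely over the 9 libraries. Among 11856 further genes averaging at least 5 CPM, ENSRNOG00000014117 had the pattern most like that of Stat3, with a Pearson r of 0.996 over the log2 CPM of 9 libraries. ENSRNOG00000002905 was most like Cd44, with an r of 0.992. An r above 0.95 was found for 207 genes with Stat3, 132 with Cd44, 27 with Lcn2, 10 with Gfap and 0 with Vim. These coefficients describe the libraries, which share the split between rt-PA 1 and rt-PA 2 and the rest, and no symbol was available for either gene.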

How the data were processed

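Per the labels' protocols, Trizol-extracted RNA was enriched for mRNA with polyT, fragmented, reverse-transcribed and PCR-amplified. Tools listed in the submitters' processing notes, with no role, are StringTie 1.3.1, HISAT2, Bowtie2 2.2.8 and fastp 0.18.0. What counted the reads, with which strand setting, build and annotation, is not given in the sources used here. Thus reads shared with overlapping or antisense genes cannot be told apart. The authors deposited whole-number read counts per Ensembl gene, not normalized.

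Groups and replicate numbers came from titles, and columns were matched through sample descriptions. In R 4.3.3, edgeR 4.0.16 was fitted to all 9 libraries with 1 mean per group, after filterByExpr and TMM scaling, with the robust quasi-likelihood F test, 6 residual degrees of freedom and Benjamini-Hochberg adjustment over 15402 genes at 0.05. For 95% intervals the standard error was taken as log2 fold change over root F. log2 CPM used a prior count of 2. Alternatives used DESeq2 1.42.0 and limma 3.58.1. Fits were tested on simulated data with 1 spread per gene in all groups and no library that stood apart. That simulation therefore cannot tell which test suits these libraries. The genes named are the 5 members and the 2 identifiers most like any of them. The members, lists and tests were chosen with earlier results of these data known. Lists of related genes and of cell type markers, written as symbols, were not used, since 0 of 47357 reference genes carry an Ensembl identifier.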

Additional observations from a re-analysis of the deposited data

How the results depend on the processing

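Of the 5 genes, edgeR called 0 in each comparison. Counts below come in the order rt-PA over saline, then Nano-patrol+NIR over saline and over rt-PA, then the any-group test. The count stayed at 0 in each with limma-voom, with either other scaling (relative log expression, plain totals), with either other low-count rule (none, or 1 CPM in 3 libraries), with a threshold of 0.01, with the replicate block and, pairwise, with 6 libraries fitted. DESeq2 called 4, 0, 3 and 4 (6.9%, 0.857%, 4.07% and 7.08% of all genes). Library weights in limma-voom gave 4, 0, 4 and 4 (45.2%, 5.9%, 39.1% and 49.5% of all). Leaving out Nano-patrol+NIR 3, rt-PA 3 and saline 1 together, added after seeing the data, also gave 4, 0, 4 and 4 (43.8%, 3.27%, 40.5% and 45.3% of all). Over fits that left out 1 library, the counts ran from 0 to 4, 0 to 0, 0 to 3 and 0 to 4, the higher values coming without rt-PA 3. The cause was not tested.

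Gfap, Lcn2, Cd44 and Stat3 kept the sign of every log2 fold change in all 20 alternatives. These include the stricter threshold, which reuses the main fit and cannot change a sign. For rt-PA against saline, Cd44 ranged from 4.09 to 5.22, Gfap from 1.83 to 2.56 and Stat3 from 1.3 to 2.10. Lcn2, the least stable, ranged from 1.96 to 4.12. For Nano-patrol+NIR against saline, Gfap, Cd44 and Stat3 came close to 0, so their kept sign says little there. Gfap ranged from 2.0e-05 to 0.68, Cd44 from 0.045 to 0.68, Stat3 from -0.13 to -0.020 and Lcn2 from 0.58 to 1.88. For Nano-patrol+NIR against rt-PA, Lcn2 ranged from -2.73 to -0.91. Vim changed sign in 15 values, which ran from 0.0018 to 0.163, and none was called. For rt-PA against saline these were 0.025 with relative log expression, 0.025 with DESeq2, 0.016 without a filter, 0.16 with library weights and 0.16 without the 3 libraries named above. Leaving out 1 library gave Vim -0.14 to 0.16 for rt-PA against saline, -0.22 to 0.024 for Nano-patrol+NIR against saline and -0.28 to 0.021 for Nano-patrol+NIR against rt-PA. No scaling moved the median of all genes by over 0.1.

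Of the 10 gene pairs, 4 had an adjusted exact permutation p under 0.05 for Pearson r over 9 libraries and 0 for Spearman rho. These p-values come from shuffling libraries across groups, so they cannot separate co-variation of the genes from differences between groups. Leaving out 1 library gave 0, without rt-PA 1, to 6, without rt-PA 3.

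With the replicate block, rt-PA against saline gave Cd44 a log2 fold change of 4.60 (edgeR adjusted p = 0.179) and Gfap one of 2.06 (edgeR adjusted p = 0.162). Deviations of same-numbered libraries from their group means correlated at -0.362 to 0.278, over 0.1 in 5 of 9 pairs, and 2 of 9 libraries were most like their own number. Between Nano-patrol+NIR and rt-PA all 3 pairs were over 0.1 (0.113, 0.254 and 0.278), but the labels name nothing these share, and the block called 0 of the 5 genes there too (Cd44 log2 fold change -4.08, edgeR adjusted p = 0.326). Depth limits Lcn2 most, with 13 to 357 counts per library.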
